A study of Rattus norvegicus with 8 samples.

Results

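Pax6 and 9 other transcription factors of retinal development were described in purified rat retinal ganglion cells (RGCs), which carry the output of the retina to the brain through the optic nerve. The genes were chosen by symbol: every spot whose symbol in the probe annotation is Pax6, Six3, Six6, Sox2, Sox4, Neurod1, Tfap2b, Lhx1, Prox1 or Onecut1. They had 17 of the 45220 spots. All 10 genes had a spot with a value on all 8 arrays, and 13 of the 17 spots did. The genes were put together with their levels and their differences between the groups already known, so these values are given as a description and carry no test.

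There were 4 samples of normotensive control RGCs and 4 of RGCs exposed to chronic ocular hypertension (COH), in which the pressure inside the eye stays raised, as in many forms of glaucoma. Control and COH cells of a pair came from fellow eyes of the same animals, pooled into 4 groups. Each sample was set against a common rat reference RNA on its own two-colour array, so a level here means a log2 ratio to that reference, with 0 for equal signal and positive values for more signal from the RGCs. Strain, age, the number of animals per pool and the means and duration of the pressure rise are not stated in the labels.

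These proteins set up the eye and its cell types. Pax6, Six3 and Six6 belong to the network that first marks out the eye field, and Pax6 also stays on in ganglion, amacrine and horizontal cells of the mature mammalian retina. Sox2 maintains progenitors, and Sox4 and Neurod1 act as cells differentiate. Tfap2b, Lhx1, Prox1 and Onecut1 are best known from horizontal and amacrine cells, the interneurons that are neighbours of the ganglion cells.

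Promoter windows of 6 of the 10 genes were in the RefSeq table (build GRCr8, 250 bases before to 50 bases after the gene start). Those of Pax6, which of the 10 genes had the largest mean difference, and of the paralogues Six3 and Six6 are shown to identify these genes. The arrays did not measure promoter activity. Capitals mark the CCAAT box, read on either strand as CCAAT or ATTGG, words that do not overlap here.
Pax6, chr3:112590346-112590645, plus strand: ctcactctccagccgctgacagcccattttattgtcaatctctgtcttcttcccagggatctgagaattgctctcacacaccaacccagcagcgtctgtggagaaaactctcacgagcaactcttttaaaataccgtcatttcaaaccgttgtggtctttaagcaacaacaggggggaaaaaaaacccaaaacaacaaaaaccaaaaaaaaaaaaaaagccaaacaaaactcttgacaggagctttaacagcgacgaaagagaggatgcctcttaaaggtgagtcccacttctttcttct
Six3, chr6:14796207-14796506, minus strand: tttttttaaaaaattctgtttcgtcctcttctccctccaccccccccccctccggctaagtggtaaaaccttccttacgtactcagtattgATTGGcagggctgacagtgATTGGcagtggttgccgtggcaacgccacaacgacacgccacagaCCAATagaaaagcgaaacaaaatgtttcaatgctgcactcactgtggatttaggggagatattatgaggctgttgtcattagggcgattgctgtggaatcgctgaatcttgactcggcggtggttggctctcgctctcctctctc
Six6, chr6:97370185-97370484, plus strand: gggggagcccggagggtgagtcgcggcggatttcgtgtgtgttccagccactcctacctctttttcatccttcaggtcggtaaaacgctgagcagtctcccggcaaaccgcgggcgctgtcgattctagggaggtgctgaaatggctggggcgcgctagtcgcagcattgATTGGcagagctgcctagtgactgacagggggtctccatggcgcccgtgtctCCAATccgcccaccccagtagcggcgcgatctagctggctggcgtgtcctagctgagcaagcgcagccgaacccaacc

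The Six3 window held 3 CCAAT boxes, the Six6 window 2 and the Sox2 window 1, while those of Pax6, Lhx1 and Neurod1 held 0. Of all 33469 promoter windows, 37.5% held at least 1. The longest run that Six3 and Six6 shared was attgATTGGcag, 12 bases around an inverted CCAAT box, which 4 windows of the table held. A match of letters is not a bound site.

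The arrays carried 32101 to 42076 values each, of which 50.9% to 59.5% were shared exactly by 3 or more spots. Why values repeat was not tested. A value shared by at most 2 spots is called distinct here. Of the 10 genes, 5 (Pax6, Tfap2b, Prox1, Six6 and Sox4) had distinct values throughout on at least 1 spot. The COH 4 array stood apart: its deviation from the median array ranged over 1.18 log2 units between blocks of feature numbers, against 0.22 to 0.90 on the others. Differences of the 10 genes without pair 4 are therefore given beside the results. Across the table, limma with the pair as a block called 0 of 18595 items at an adjusted p under 0.05 (smallest adjusted p 0.915), and 880 had an unadjusted p under 0.05 and at least 1.5-fold change, the rule of the design text. A median over all items of -0.31 in control cells and of 0.08 for COH minus control is the background for the values below.

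Pax6 was lower in COH cells in every pair. The paired box and homeodomain factor stood on the control arrays 1 to 4 at log2 ratios of 0.85, 0.77, 1.40 and 1.12, and on the COH arrays at 0.45, -0.15, 0.26 and -0.45. The highest COH array lay below the lowest control array, so the groups did not overlap, and Pax6 was above the reference on 4 of 4 control and 2 of 4 COH arrays. The mean went from 1.03 ± 0.29 in control to 0.027 ± 0.40 in COH cells (SD, n = 4), a difference of -1.01 ± 0.49 (SD of 4 pairs), or 2.01-fold higher in control cells. Differences within pairs were -0.40, -0.91, -1.14 and -1.57 in pairs 1 to 4.

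Among the 10 genes, Pax6 was the only one to meet the design-text rule, as 4.73% of all items did (2.17% lower and 2.57% higher in COH cells). Of all items, 4.02% had a lower mean difference than Pax6, 4.66% were lower in 4 of 4 pairs and 0.946% were lower without overlap. Without pair 4 the Pax6 difference was -0.82, and without pair 1 it was -1.21. It no longer met the rule without pair 2, pair 3 or pair 4. The sign could not change in these fits, since Pax6 was lower in every pair.

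**Figure D1:**
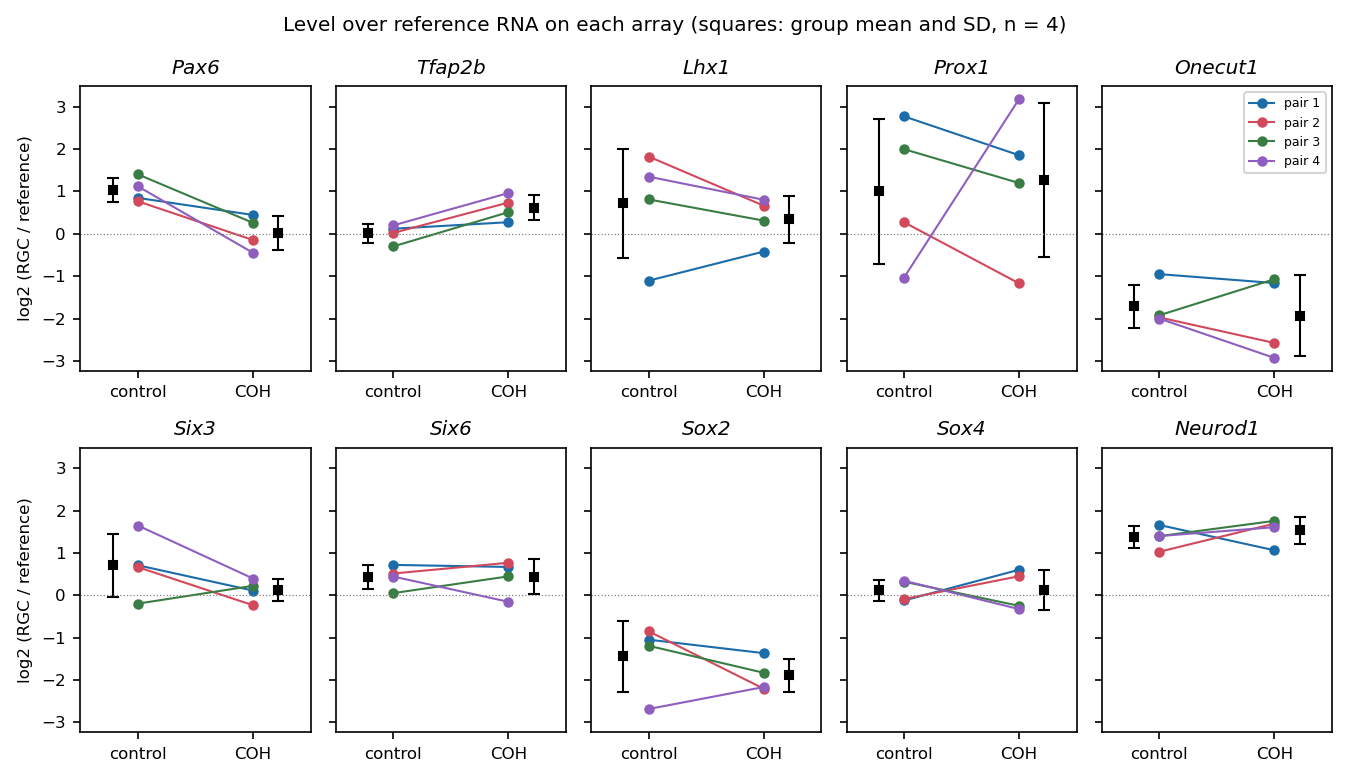
Log2 ratio of RGC over reference RNA (vertical axis) for the 10 genes on the 4 control and 4 COH arrays; lines join the pairs, and squares with bars are group means and SD (n = 4). Pax6 is lower and Tfap2b higher in COH in each of the 4 pairs, while Prox1 spreads over more than 3 log2 units in both groups.

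Six3 and Six6, homeodomain factors that work beside Pax6 in the eye field, did not share its pattern in all pairs. Six3 was at 0.71, 0.67, -0.20 and 1.65 on control arrays 1 to 4, and at 0.11, -0.23, 0.22 and 0.40 on the COH arrays. It was lower in 3 of 4 pairs, with pair 3 the exception, and the groups overlapped. The difference was -0.58 ± 0.72 (SD of 4 pairs), and -0.36 without pair 4. Its single spot had shared values on 3 of 8 arrays.

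Six6 was at 0.72, 0.52, 0.052 and 0.44 in control and at 0.67, 0.77, 0.45 and -0.15 in COH cells on the spot valued on every array. The means were 0.43 ± 0.28 and 0.43 ± 0.41 (SD, n = 4), and the pairs were evenly divided, with 2 higher and 2 lower. The difference was 0.0012 ± 0.44 (SD of 4 pairs), and 0.20 without pair 4. A second Six6 spot gave another picture: 4.05, 2.89 and 0.81 on control arrays 1 to 3, with no value on control 4, and 3.29, 4.57, 3.60 and 4.51 on the COH arrays. It was higher by 1.24 ± 1.81 (SD of 3 pairs), with pair 1 lower. The Six6 spots therefore disagreed in level and in difference, and all their values were distinct.

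Of the genes tied to the progenitor state and to the start of differentiation, Sox2 was low. This SoxB1 factor persists in Muller glia of the mature retina. It was at -1.05, -0.85, -1.19 and -2.68 in control and at -1.37, -2.21, -1.83 and -2.17 in COH cells, below the reference on all 8 arrays. It was lower in COH in 3 of 4 pairs, with a difference of -0.45 ± 0.78 (SD of 4 pairs). It was -0.77 without pair 4 and -0.15 without pair 2. The groups overlapped, and 7 of its 8 values were shared with other spots.

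Sox4, a SoxC factor that promotes ganglion cell differentiation, had 6 spots, of which 4 had a value on every array. Their average was at -0.12, -0.087, 0.32 and 0.34 in control and at 0.60, 0.45, -0.25 and -0.33 in COH cells. Pairs 1 and 2 were higher and pairs 3 and 4 lower, so the mean difference of 0.0061 ± 0.73 (SD of 4 pairs) stands for opposite movements. Without pair 4 it was 0.23. The spots ranged in control mean from -1.68 to 1.92. The spot with distinct values on all 8 arrays was at -0.18 ± 0.85 in control and 0.35 ± 0.41 in COH cells (SD, n = 4), higher in 3 of 4 pairs by 0.53 ± 0.73. The brightest of the 4 relative to the reference went from 1.92 ± 0.31 to 1.58 ± 1.38, and it was up in pairs 1 and 2 and down in pairs 3 and 4. That spot had shared values on 5 of 8 arrays. The other 2 differed by 0.22 ± 0.97 and -0.38 ± 0.54 (SD of 4 pairs), with shared values on 7 and 8 of 8 arrays.

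Neurod1, a basic helix-loop-helix factor of photoreceptors and amacrine cells, was above the reference on all 8 arrays. It stood at 1.66, 1.03, 1.40 and 1.40 in control and at 1.06, 1.69, 1.76 and 1.61 in COH cells. Its control SD of 0.26 was close to that of Pax6, the groups overlapped, and the difference was 0.16 ± 0.54 (SD of 4 pairs), with 3 of 4 pairs higher. It was 0.14 without pair 4 and -0.0090 without pair 2. All 8 of its values were shared with other spots, which limits how far its level can be read.

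**Figure D2:**
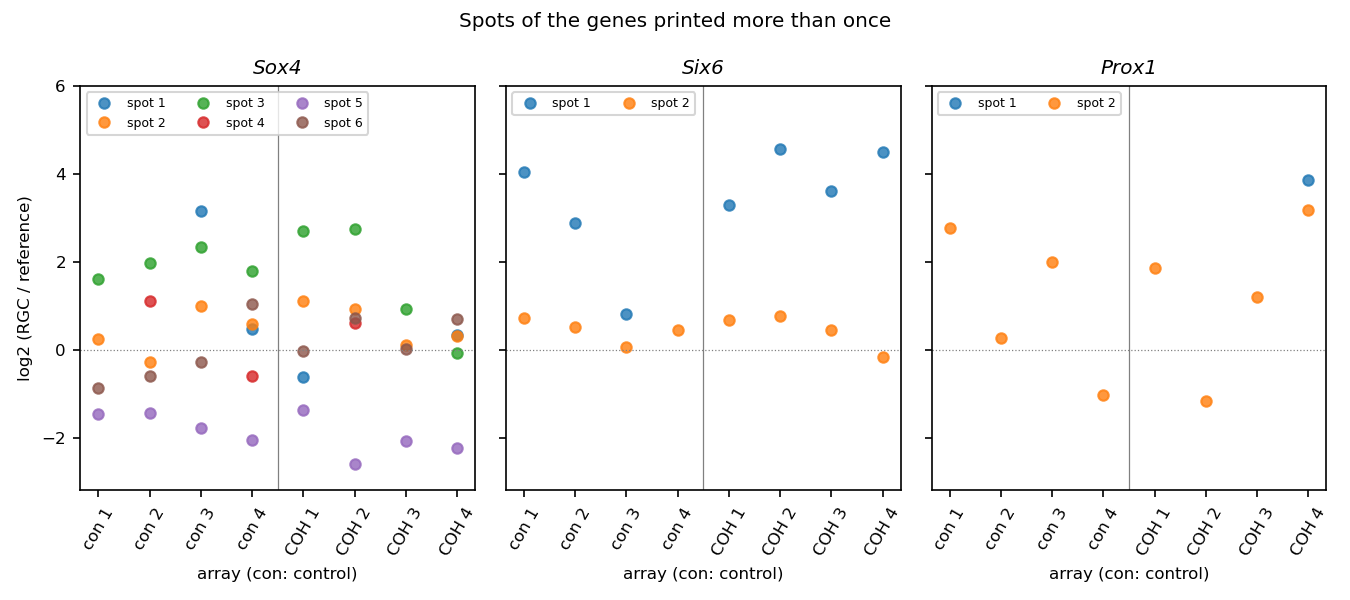
Log2 ratio over reference (vertical axis) of every Sox4, Six6 and Prox1 spot on each array (horizontal axis). The complete Sox4 spots range from -1.68 to 1.92 in control mean, and the Prox1 spot with a single value is present on COH 4 alone.

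Tfap2b was the counterpart of Pax6. This AP-2 factor of amacrine and horizontal cells was at 0.12, 0.022, -0.30 and 0.20 on control arrays 1 to 4 and at 0.27, 0.74, 0.51 and 0.96 on the COH arrays. Every COH array was above every control array. The mean went from 0.011 ± 0.22 to 0.62 ± 0.30 (SD, n = 4), a difference of 0.61 ± 0.31 (SD of 4 pairs), or 1.53-fold. Pair 1 had the smallest difference, 0.15, and pairs 2 to 4 had 0.72, 0.81 and 0.76. Tfap2b did not meet the design-text rule. Of all items, 13.6% had a higher mean difference, 8.38% were higher in 4 of 4 pairs and 1.58% were higher without overlap. Without pair 4 the difference was 0.56, and with the trend over feature numbers removed it was 0.47.

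Array by array, Pax6 and Tfap2b ran in opposite order among the COH samples. Pax6 was highest on COH 1, then COH 3, COH 2 and COH 4, and Tfap2b took exactly the reverse order. In control cells the array with the highest Pax6, control 3, had the lowest Tfap2b. The other control arrays had the same order for both genes, rising from control 2 to control 1 to control 4. With 4 arrays per group, neither order was tested. Both genes also separate the groups, so no correlation over the 8 arrays is given for this pair.

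**Figure D3:**
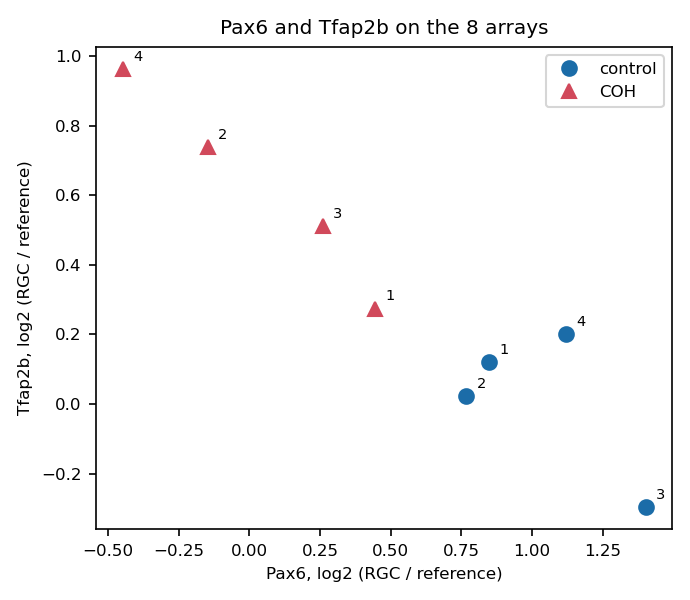
Tfap2b (vertical axis) against Pax6 (horizontal axis), both as log2 ratio over reference, on the 4 control (circles) and 4 COH (triangles) arrays, labelled by pair. COH samples lie at lower Pax6 and higher Tfap2b than any control sample.

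The LIM homeodomain factor Lhx1, which positions horizontal cells, was at -1.11, 1.82, 0.81 and 1.35 in control and at -0.42, 0.66, 0.31 and 0.80 in COH cells. Control 1 was its lowest array, and pair 1 was the only pair in which COH was higher. The difference was -0.38 ± 0.77 (SD of 4 pairs), with overlapping groups and shared values on 5 of 8 arrays. It was -0.32 without pair 4, -0.12 without pair 2 and -0.74 without pair 1. Onecut1, a cut-homeodomain factor of horizontal cells and some ganglion cells, was below the reference on all 8 arrays. Its values were -0.95, -1.97, -1.92 and -2.002 in control and -1.16, -2.58, -1.07 and -2.93 in COH cells, a difference of -0.22 ± 0.77 (SD of 4 pairs). It was lower in 3 of 4 pairs, but its mean difference was smaller than the SD of the pairs, and without pair 4 the difference was 0.013. Its single spot had shared values on 4 of 8 arrays.

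Prox1, a homeodomain factor of horizontal cells and of the rod pathway's AII amacrine cells, was the most variable of the 10. It was at 2.77, 0.27, 1.999 and -1.03 in control and at 1.86, -1.17, 1.20 and 3.18 in COH cells. It was lower in pairs 1 to 3, with differences of -0.92, -1.44 and -0.80, and higher by 4.22 in pair 4. The mean difference of 0.26 ± 2.65 (SD of 4 pairs) therefore rests on 1 pair. Without pair 4 it was -1.05 and met the design-text rule, in a fit on 3 pairs. A further Prox1 spot had a value on COH 4 alone, 3.85. Both Prox1 spots were thus high on the array that stood apart. With the trend over feature numbers removed, the mean difference was 0.31, beside 0.26. The part of that array in the Prox1 value was not tested.

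**Figure D4:**
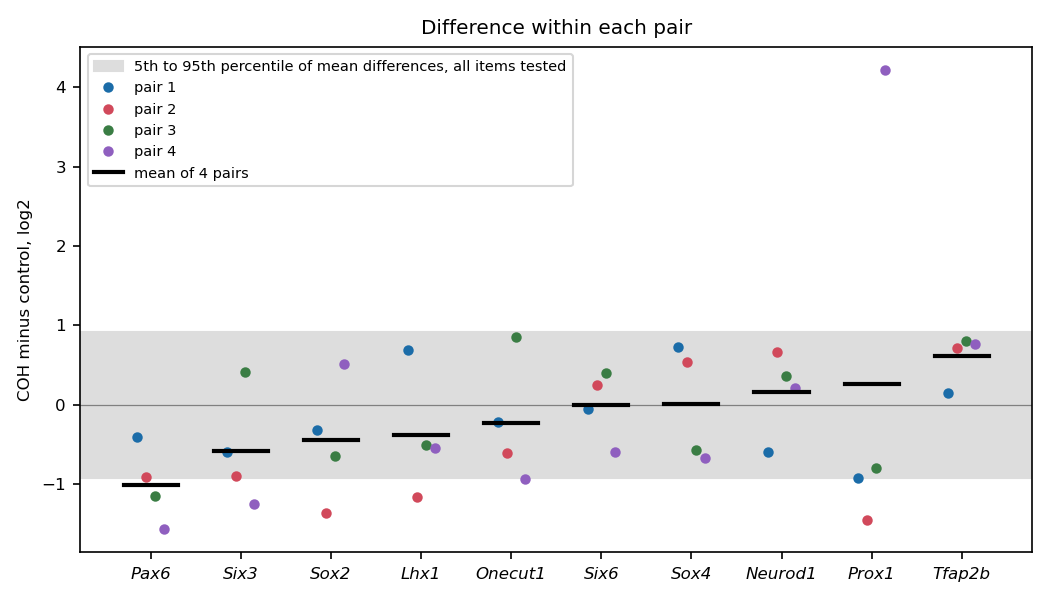
COH minus control difference in log2 units within each of the 4 pairs (points) and their mean (bars) for the 10 genes, ordered by the mean; the grey band spans the 5th to the 95th percentile of the mean differences of all items, from -0.92 to 0.92. The mean of Pax6 is the only one outside the band.

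The median difference of the 10 genes was -0.11, beside 0.08 over all items, with 1 gene higher and 1 lower in 4 of 4 pairs. The mean difference over the 10 genes was -0.15, -0.42 and -0.082 in pairs 1 to 3 and 0.015 in pair 4. The pair 4 mean includes the Prox1 difference of 4.22. The next highest in that pair was Tfap2b at 0.76, and the lowest was Pax6 at -1.57. In control cells 3 of the 10 (Pax6, Six6 and Neurod1) were above the reference on all 4 arrays, as were 24.8% of all items, and 2 (Sox2 and Onecut1) were below it, as were 42.5%. A level of this kind reflects the content of the reference RNA too, and all arrays had the same dye orientation. With each array centred on its median over the tested items, control levels were higher, at 1.36 for Pax6 and 0.34 for Tfap2b.

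The genes closest to Pax6 in pattern were sought among 4984 named genes that had a spot with distinct values. Over the 8 arrays Stt3b, a catalytic subunit of the oligosaccharyltransferase, came first with a Pearson r of 0.94 (Spearman correlation 0.93) and was at -0.23 in control and -1.86 in COH cells. It was followed by Arhgdib (r = 0.93), Synj2bp (0.92), a mitochondrial outer membrane protein, Tuba1c (0.90), an alpha-tubulin, and Rcor2 (0.89), a corepressor of the CoREST family. Without the arrays farthest from the Pax6 median, COH 4 and control 3, r was 0.89 for Stt3b, 0.87 for Arhgdib, 0.93 for Synj2bp, 0.75 for Tuba1c and 0.82 for Rcor2. All 5 were lower in COH cells, by the way they were chosen, and the highest of 4984 correlations over 8 arrays is high for any gene. By the same measure the cochaperone gene Dnajb1 was closest to Tfap2b (r = 0.97) and Mrpl30, a mitochondrial ribosomal protein gene, to Prox1 (0.95). Dbr1, the lariat debranching enzyme, was closest to Six6 (0.98) and Calcoco1 to Sox4 (0.95).

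Of 116 other transcription factors listed for retinal progenitors, ganglion cells, interneurons and photoreceptors, 41 had a spot valued on every array. Of these 2 met the design-text rule, both lower in COH cells, beside 4.73% of all items, and none passed the adjusted threshold by limma. Their median difference was 0.09, as for all items (0.08). Hes5, a Notch-activated repressor, was at 1.82, 1.27, 1.28 and 0.59 in control and at 0.48, 0.21, 0.95 and -0.71 in COH cells, a difference of -1.01 ± 0.47 (SD of 4 pairs). It was lower in 4 of 4 pairs, although the groups overlapped. Otx1, an orthodenticle homeobox factor, went from 3.44 ± 1.17 to 2.24 ± 1.54 (SD, n = 4), lower in 4 of 4 pairs. Both rest on a spot that shared its value with others on at least 1 array. Neither met the rule without pair 1, pair 2 or pair 4. Without pair 4 the difference was -0.91 for Hes5 and -0.66 for Otx1.

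No listed factor met the rule as higher in COH cells. The 3 of smallest p in that direction were Id1 (0.67 ± 0.52, SD of 4 pairs), an inhibitor of basic helix-loop-helix factors, Eya2 (0.74 ± 0.88), a cofactor of the Six3 and Six6 family, and Hes1 (0.64 ± 0.59), a relative of Hes5. Every pair had the higher value in COH cells for each of them, and limma's adjusted p was 0.915 for all 3. Hes1 and Hes5 thus had differences of opposite sign, and their difference from each other was not tested.

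**Figure D5:**
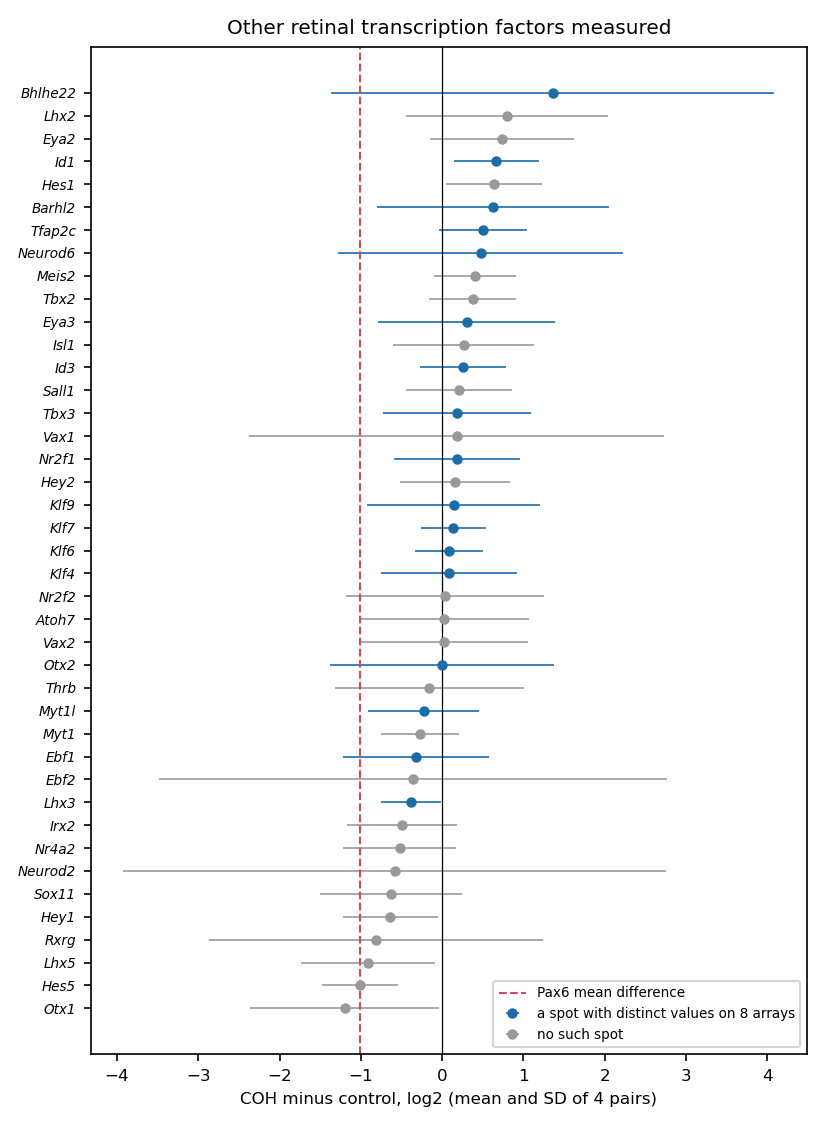
Mean COH minus control difference in log2 units with the SD of 4 pairs (horizontal axis) for the 41 other retinal transcription factors measured; blue marks genes with a spot of distinct values on all 8 arrays, and the dashed line is the Pax6 difference. Otx1 and Hes5 are the only genes at or below the dashed line.

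Relatives of the 10 genes in that list were singled out after their values were seen. Signs differed among the Lhx genes, while Tfap2c had the sign of Tfap2b. Lhx5, which acts with Lhx1 in horizontal cells, was at 1.77 ± 0.59 in control and 0.86 ± 0.71 in COH cells (SD, n = 4), lower in 4 of 4 pairs with a difference of -0.91 ± 0.82 (SD of 4 pairs), and of -0.50 without pair 4. Lhx2 was at 0.80 ± 1.25 and Lhx3 at -0.38 ± 0.37 for the same difference. Tfap2c, an AP-2 relative of Tfap2b, was higher in 3 of 4 pairs, by 0.50 ± 0.54. Sox11, the SoxC partner of Sox4, was at 2.91 ± 1.14 in control and 2.29 ± 0.97 in COH cells, and Atoh7, the factor that makes progenitors competent to become ganglion cells, at 1.78 ± 0.52 and 1.81 ± 1.01 (SD, n = 4). Neurod2 differed by -0.58 ± 3.34 and Neurod6 by 0.47 ± 1.75 (SD of 4 pairs). None of these met the design-text rule.

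The cells were labelled as purified RGCs, and other retinal cells share these factors, so marker lists were read beside them. In RNA of a pooled sample, fewer cells of a type and less RNA per cell cannot be told apart. Of 20 RGC markers 16 were measured, with list means of -0.080 to 0.65 on the control and 0.077 to 0.58 on the COH arrays and a difference of 0.04 ± 0.25 (SD of 4 pairs). Of the 16, 9 were higher and 7 lower in COH cells, with a median difference of 0.07. Thy1, one of the lower genes, was lower in 3 of 4 pairs, with a mean difference of -1.28, and met the design-text rule. It had no spot with distinct values on all 8 arrays. Without pair 4 its difference was -1.15 and the rule was not met. Pou4f1, Pou4f2 and Pou4f3, defining RGC factors, were not among the genes measured on every array.

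Amacrine markers (12 of 18 measured) had list means of -0.092 to 0.62 on control and 0.15 to 0.34 on COH arrays, with a difference of 0.09 ± 0.26 (SD of 4 pairs). Horizontal cell markers (4 of 8 measured) had list means of 0.23 to 0.75 and 0.45 to 0.61 and a difference of -0.016 ± 0.20. Muller glia markers (10 of 14 measured) had list means of -0.79 to -0.10 and -0.73 to -0.27 and a difference of 0.00035 ± 0.35. No gene of these 3 lists met the design-text rule.

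Of the astrocyte list (6 of 7 measured), 3 genes were lower and 3 higher in COH cells, with a median difference of -0.07. It had list means of -0.19 to 0.0020 on control and -0.51 to -0.22 on COH arrays. The list mean was lower in all 4 pairs, and its difference was -0.31 ± 0.14 (SD of 4 pairs). Aldh1l1, an astrocytic folate enzyme, differed by -0.92 and the glutamate transporter Slc1a2 by -1.24, and both met the design-text rule. Without pair 4 these differences were -1.05 and -0.85, and Slc1a2 no longer met it. Aldoc (0.25), Gja1 (0.18) and Gfap (0.15) were each higher in 3 of 4 pairs.

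The microglial list (10 of 14 measured) had list means of -0.39 to 0.17 on control and -0.42 to 0.074 on COH arrays, with 4 genes higher and 6 lower and a median difference of -0.04. Its mean difference was -0.14 ± 0.43 (SD of 4 pairs). In this list Cx3cr1, the fractalkine receptor, was lower in 4 of 4 pairs without overlap, with a difference of -2.05 ± 0.95 (SD of 4 pairs), and met the design-text rule. Its spot shared values with others on at least 1 array, and without pair 4 the difference was -1.59, still within the rule. Trem2, a receptor of microglia, was lower in 4 of 4 pairs without overlap as well, with a difference of -0.55 ± 0.28, and did not meet the rule. The 4 genes of the list that were higher were C1qc (0.83), Ptprc (0.48), Aif1 (0.39) and Tyrobp (0.37). Tyrobp was higher in 4 of 4 pairs, with overlapping groups, and none of the 4 met the rule. The part of astrocytes and microglia in the Pax6 value was not tested. Lists of photoreceptor (7 measured; 0.05 ± 0.47), bipolar (8; -0.025 ± 0.13) and endothelial markers (4; 0.04 ± 0.37, SD of 4 pairs) had differences smaller than their spread. In that order, their list means on the control arrays were 0.49 to 1.80, 0.46 to 0.997 and 0.48 to 1.33. The RGC list had -0.080 to 0.65 on the same arrays. The part of other retinal cells in these levels was not tested. Markers of other tissues (11 of 20 measured), which RGCs should lack, had 4 genes above the reference on all 4 control arrays, so a ratio above 0 need not show expression in these cells. Their list difference was 0.255 ± 0.33 (SD of 4 pairs), with 8 genes higher and 3 lower in COH cells. Without pair 4 it was 0.41 ± 0.11 (SD of 3 pairs). The RGC list differed by 0.04 with all pairs and by 0.06 without pair 4.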

How the data were processed

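Two-colour Agilent rat arrays held RGC RNA (Cy5) against a common reference RNA (Cy3), per the labels; both were amplified in successive rounds. The authors deposited log2 ratios after Lowess normalisation and Agilent quality filters, per the design text. Software was not given in the sources used. Frequent values lying 2 apart gave the log base, and the dyes gave the direction. Symbols were updated by gene identifier. Spots valued on 8 arrays were averaged per gene, giving 18595 items (9792 named genes). COH and control were compared with limma 3.58.1 (R 4.3.3), lmFit and eBayes on all 8 arrays, with the replicate number as a block, Benjamini-Hochberg adjustment at 0.05, and checked on simulated data. The design-text rule is an unadjusted p under 0.05 and 1.5-fold. Its analysis of variance has no stated form, so limma's p was used. The pairing comes from the design text and the numbered titles. Deviations of same-numbered arrays correlated at 0.09, 0.02, 0.06 and 0.03. The labels do not say that pools are separate litters or days, so spread between samples may be partly technical. Precision is limited by the number of arrays.

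The members and lists were chosen with earlier results of these data known. All members are named. Of the other factors, those meeting the design-text rule are named, otherwise the 3 of smallest p per direction. For Pax6 the 5 closest genes by Pearson r over 8 arrays are named, and 1 for each other member with distinct values. Alternatives covered centring, quantile normalisation, no block, at least 3 complete pairs, distinct values, the trend over blocks of 850 feature numbers, single spots, array weights and each pair left out.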

Additional observations from a re-analysis of the deposited data

Results flagged for a closer look

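The 10 genes and the complete Sox4 spots gave 28 sets of 4 arrays, control and COH apart. One array in 1 set stood far from its group; by chance about 1 in 20 sets holds such an array. Onecut1 on the control 1 array was at a log2 ratio of -0.952, while the other control arrays were at -2.002 to -1.922. Without pair 1 the Onecut1 difference was -0.23, beside -0.22 with all pairs.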

How the results depend on the processing

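No item passed the adjusted threshold under any of the 12 alternatives (0 each, limma). The items meeting the design-text rule numbered 880, 902 with arrays centred, 918 with quantile normalization, 697 with no replicate block and 431 with distinct values only, where 8278 items were tested; without replicates in turn they ranged from 679 to 1079. The split was 477 higher to 403 lower, and 444 to 458 when centred, 423 to 495 with quantile normalization and 358 to 73 with distinct values only. One of the 10 genes met the rule, and with each pair left out in turn the number ranged from 0 to 1: Pax6 without pair 1, none without pair 2 or pair 3, and Prox1 in place of Pax6 without pair 4. Pax6 was lower in all of its 11 alternatives (-1.21 to -0.82), and Tfap2b higher in all of its 11 (0.47 to 0.76). Most of these could not change the sign. No block, at least 3 complete pairs and distinct values left the differences at -1.01 and 0.61. Array weights and leaving a pair out only average pairs that all have the same sign. Centring, quantile normalization and removal of the trend could, and gave -1.05, -1.02 and -1.11 for Pax6. For Tfap2b they gave 0.57, 0.63 and 0.47. The median difference of the 10 genes was -0.11, and 0.26 with distinct values only, where 5 of them were left. The factors in the other list meeting the rule numbered 2, then 1 with no replicate block, 1 with at least 3 complete pairs, 0 with distinct values only, 1 once the trend over feature numbers was removed, and 0 to 2 with each pair left out; the cause was not tested. The block changed no other result of the 10 genes: Pax6 met the rule with and without it. Signs of Six6, Sox4, Prox1, Onecut1 and Neurod1 varied between settings, with lowest and highest values of -0.18 and 0.39, -0.38 and 0.53, -1.05 and 0.83, -0.58 and 0.013, and -0.0090 and 0.41. Intensities were not used here, so signal over background is not known, and its part in the shared values was not tested.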
